A study of Mus musculus with 8 samples.

Results

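Toll-like receptors (TLRs) and Cd14 were examined in blood monocytes (MCs) of control and diabetic mice. The 10 genes were chosen by name, as the receptors Tlr1, Tlr2, Tlr4, Tlr5, Tlr6, Tlr7, Tlr8, Tlr9 and Tlr13 and the coreceptor Cd14. All 10 were found among the 16486 genes of the deposited expression values. No filter on low values was applied to them.

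The study asked how diabetes changes the MC subsets that carry much or little of the surface protein Ly6C. The control (CT) mice were wild-type C57/BL6. The T1DM mice were C57/BL6 given streptozotocin, a toxin of insulin-producing beta cells, intraperitoneally in 5 daily doses of 50 mg/kg that began at 8 weeks. The T2DM mice were db/db, homozygous for a mutation of the leptin receptor, so that diabetes came with obesity from a gene defect present in every cell. All were fed normal chow, and blood was taken at 20 to 22 weeks. CD11b+Ly6G- cells were sorted as Ly6Chigh or Ly6Clow MCs, and the RNA of 5 mice was pooled in each group. There were 8 libraries, which are 2 of CT Ly6Chigh, 2 of CT Ly6Clow and 1 of each subset in T1DM and T2DM mice. The sources describe sequencing of the pooled RNA in duplicate. The spread between the CT libraries may therefore be technical and need not contain differences between mice. Within CT mice, p-values measure only that spread. Where all 8 libraries were fitted with subset and mouse group, p-values also measure how the subset difference varied between mouse groups. Where T1DM and T2DM mice were joined, p-values also measure the difference between these models within each subset. CT libraries were run on another sequencer than the diabetic libraries, so that the effects of diabetes and of the sequencer cannot be told apart where diabetic and CT mice are compared. The subset comparison within a mouse group, and the comparison of T2DM with T1DM mice, each lie within 1 sequencer.

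TLRs are membrane proteins that bind microbial molecules through leucine-rich repeats and signal through an intracellular TIR domain. Those on the cell surface bind components of bacterial walls and flagella, and those in endosomes bind nucleic acids. Most signal through the adaptor MyD88 to NF-kB and inflammatory cytokines, and Tlr4 uses the adaptor TRIF as well. Cd14 hands lipopolysaccharide to the complex of Tlr4 and MD-2 (Ly96), and is a classical surface marker of monocytes. Ly6Chigh MCs are known as the inflammatory subset that enters tissue, and Ly6Clow MCs as the subset that patrols the vessel wall.

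The values are log2 expression, and were compared for each gene between libraries but not between genes, since the sources used here do not state whether they were made from the gene counts or from the length-scaled TPM values that were both computed. The labels give 40000000 reads per sample, but how many of them lie behind a single value cannot be read from log2 values. Over all genes the 2 CT libraries of a subset differed by a median of 0.257 (Ly6Chigh) and 0.247 (Ly6Clow) on the log2 scale. Markers were summed on the linear scale. The 6 classical monocyte markers summed to 5396 to 14285 in the 4 Ly6Chigh and 649 to 964 in the 4 Ly6Clow libraries. The 8 nonclassical markers summed to 1355 to 2679 and 2795 to 3815, so that neither sum overlapped between the sorted subsets. Spn, Cd300e, Ace, Treml4 and Pparg were lower in every Ly6Chigh than in every Ly6Clow library. However, the nonclassical markers Nr4a1, Cx3cr1 and Itgal overlapped between the subsets. Their CT means were higher in Ly6Chigh (8.09, 8.60 and 10.14) than in Ly6Clow MCs (7.91, 7.77 and 9.89). The 10 B cell markers summed to 263 to 509 in Ly6Chigh and 3990 to 5009 in Ly6Clow libraries. The neutrophil sum was taken over 6 of 8 listed markers, because no values were found under the names Ly6g and Camp. It was 1011 in T2DM Ly6Chigh MCs, 160 to 175 in the other Ly6Chigh libraries and 27.0 to 127 in Ly6Clow MCs. The 5 markers of monocytes in general summed to 36748 to 54998 in Ly6Chigh and 8006 to 9372 in Ly6Clow libraries. All 5 were higher in every Ly6Chigh than in every Ly6Clow library. Their mean log2 values in Ly6Chigh and Ly6Clow libraries were 10.44 and 9.73 for Csf1r, 10.72 and 9.69 for Itgam, and 8.64 and 7.76 for Cd68. They were 9.08 and 8.10 for Spi1 and 15.22 and 12.62 for Lyz2. Other sums also differed between the subsets. NK cell markers (5 of 5) were at 18.8 to 82.9 in Ly6Chigh and 121 to 643 in Ly6Clow libraries. T cell markers (6 of 6) were at 10.6 to 21.7 and 29.9 to 44.0. The part of these cells and marker differences in the results below was not tested. In bulk libraries, fewer cells of a type and less RNA per cell cannot be told apart.

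Tlr1 and Tlr6 are neighbouring genes whose log2FC between the subsets had opposite signs, although that of Tlr1 did not pass (adjusted p = 0.0579 in limma). Their transcripts share sequence, so their values are uncertain, as given below. Tlr5 had the largest subset difference of the 10. The promoters of these genes are shown. In GRCm38 with the GENCODE M21 annotation, Tlr1 lies at chr5:64924679-64933563 and Tlr6 at chr5:64952031-64960097, both on the minus strand, with 18467 bases and 0 RefSeq genes between them. Tlr5 lies at chr1:182954788-182976044 on the plus strand. The sequences below come from RefSeq (GRCm38.p6) and run 5′ to 3′ from 250 bases before to 50 bases after an annotated start, at chr5:64933509-64933808 (minus), chr5:64959117-64959416 (minus) and chr1:182954538-182954837 (plus). Tlr1 and Tlr6 each have a further entry, which is not shown. Capitals mark matches to the motifs GAGGAA (PU.1), TTGCNNAA (C/EBP), GAAANNGAA (ISRE, an interferon response element) and GGGCGG (GC box), each searched on both strands.
Tlr1: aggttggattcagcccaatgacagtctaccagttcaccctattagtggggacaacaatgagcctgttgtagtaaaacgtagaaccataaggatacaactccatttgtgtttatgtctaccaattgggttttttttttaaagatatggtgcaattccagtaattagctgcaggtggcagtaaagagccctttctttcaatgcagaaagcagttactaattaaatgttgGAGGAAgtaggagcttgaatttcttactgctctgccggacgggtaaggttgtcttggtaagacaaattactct
Tlr6: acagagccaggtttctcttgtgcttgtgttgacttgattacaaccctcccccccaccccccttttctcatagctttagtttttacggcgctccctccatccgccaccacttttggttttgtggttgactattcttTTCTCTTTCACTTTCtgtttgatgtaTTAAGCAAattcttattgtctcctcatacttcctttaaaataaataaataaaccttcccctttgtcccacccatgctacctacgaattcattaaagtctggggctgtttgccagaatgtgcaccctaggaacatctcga
Tlr5: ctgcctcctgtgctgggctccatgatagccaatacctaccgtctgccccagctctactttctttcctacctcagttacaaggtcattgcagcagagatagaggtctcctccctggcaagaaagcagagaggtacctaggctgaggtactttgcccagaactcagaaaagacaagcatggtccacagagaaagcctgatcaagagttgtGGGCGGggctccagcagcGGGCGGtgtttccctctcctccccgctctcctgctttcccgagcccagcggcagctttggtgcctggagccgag
The Tlr1 window held 1 PU.1 match, the Tlr6 window held 2 overlapping ISRE matches and 1 C/EBP match, and the Tlr5 window held 2 GC box matches. The further entries of Tlr1 (chr5:64932650-64932949) and Tlr6 (chr5:64959999-64960298) held 0 matches, so the matches depend on the entry shown. The Tlr6 window shown lies inside the gene as located above, and its further entry spans the 5′ end of the gene. Among all 32851 RefSeq promoters of this length, 28.3% held the PU.1, 10.8% the C/EBP, 8.56% the ISRE and 35.7% the GC box letters. A promoter entry was found for 7 of the 10 genes. The Tlr8 window held PU.1, C/EBP and ISRE letters, that of Tlr13 PU.1 and C/EBP letters, that of Tlr9 PU.1 letters and that of Tlr2 GC box letters. A match is only a match of letters.

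The first comparison asked how the receptors differ between Ly6Chigh and Ly6Clow MCs. Tlr5, Cd14, Tlr2, Tlr6, Tlr8 and Tlr13 were higher in Ly6Chigh MCs, by log2FC of 3.25, 1.87, 1.40, 1.28, 1.12 and 1.01. These 6 of 10 were DEG (adjusted p-value under 0.01 and absolute log2FC above 1) in the test over all 8 libraries with mouse group as covariate, and 0 of 10 were DEG in the lower direction. Of all genes, 5.37% were DEG higher and 6.76% DEG lower. The median log2FC of the 10 genes was 1.07, against -0.08 over all genes. The other endosomal receptors Tlr7 and Tlr9 had smaller positive log2FC, Tlr4 did not pass, and Tlr1 had a negative log2FC.

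**Figure D1:**
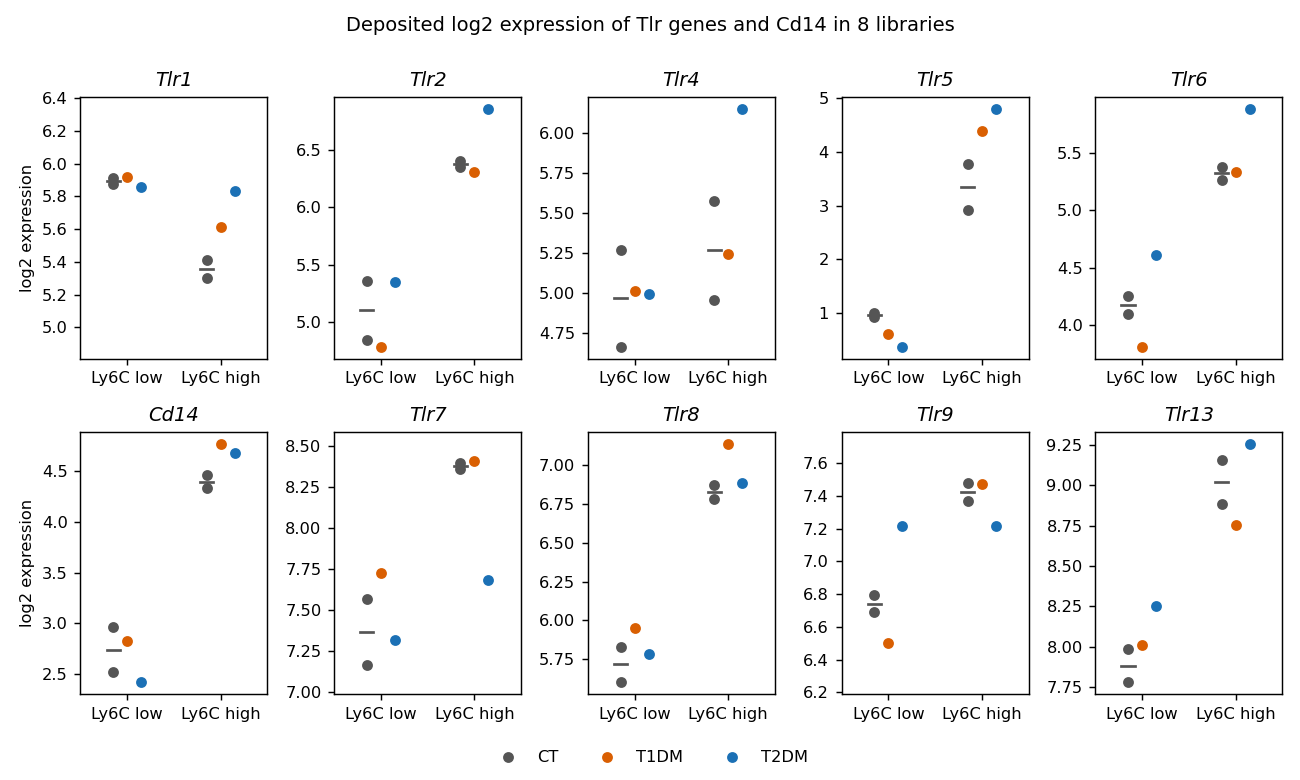
Deposited log2 expression (vertical axis) of the 10 genes in each of the 8 libraries, by mouse group and MC subset, with each point 1 library and short lines at the CT mean. The vertical axes differ between panels and do not start at 0. Tlr5 runs from 2.92 to 4.81 in Ly6Chigh and from 0.37 to 1.00 in Ly6Clow libraries, whereas the subsets overlap for Tlr4 and Tlr7 and are inverted for Tlr1.

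Among the surface receptors, Tlr5 binds bacterial flagellin. Its log2 values in Ly6Chigh MCs were 3.78 and 2.92 for CT, 4.38 for T1DM and 4.81 for T2DM, and in Ly6Clow MCs they were 0.91 and 1.00 for CT, 0.60 for T1DM and 0.37 for T2DM. The subsets did not overlap, and the lowest Ly6Chigh library was a CT library. The pooled log2FC was 3.25 with SE 0.41 (adjusted p = 0.000388). Within CT mice it was 2.39 (SE 0.38), and the single differences were 3.79 for T1DM and 4.44 for T2DM mice, where the diabetic values rest on 1 library per subset. The Ly6Clow values are low, where small changes in expression give large log2 differences. With 1 added before log2, the pooled log2FC was 2.66 and the CT log2FC 1.93.

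Cd14 was 4.46 and 4.33 for CT, 4.77 for T1DM and 4.68 for T2DM Ly6Chigh MCs, and 2.52 and 2.96 for CT, 2.83 for T1DM and 2.42 for T2DM Ly6Clow MCs. Every Ly6Chigh library lay above every Ly6Clow library. The pooled log2FC was 1.87 (SE 0.20, adjusted p = 0.000164). The gene lies at chr18:36725067-36726798 on the minus strand of GRCm38.

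Tlr4 is the lipopolysaccharide receptor that Cd14 serves. It was 4.96 and 5.58 for CT, 5.24 for T1DM and 6.15 for T2DM Ly6Chigh MCs, and 5.27 and 4.66 for CT, 5.01 for T1DM and 5.00 for T2DM Ly6Clow MCs. The subsets overlapped and the CT replicates differed by 0.62 and 0.60, more than the typical gene. The pooled log2FC of 0.50 (SE 0.22) did not pass (adjusted p = 0.124), nor did the CT log2FC of 0.30 (SE 0.34, adjusted p = 0.555), which was 0.61 without CT Ly6Chigh replicate 1 and 0.60 without CT Ly6Clow replicate 1, but -0.01 and -0.00066 without the second library of either subset. Ly96, which forms the receptor complex with Tlr4, was 3.54 and 4.34 for CT, 4.21 for T1DM and 4.70 for T2DM Ly6Chigh MCs, and 4.13 and 3.43 for CT, 3.35 for T1DM and 3.73 for T2DM Ly6Clow MCs, and its subsets overlapped too.

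Tlr2 binds bacterial lipopeptides as a dimer, with Tlr1 for triacylated and with Tlr6 for diacylated ones. Tlr2 was 6.40 and 6.35 for CT, 6.31 for T1DM and 6.86 for T2DM Ly6Chigh MCs, and 4.84 and 5.36 for CT, 4.79 for T1DM and 5.35 for T2DM Ly6Clow MCs. Tlr6 was 5.27 and 5.38 for CT, 5.34 for T1DM and 5.89 for T2DM Ly6Chigh MCs, and 4.09 and 4.25 for CT, 3.81 for T1DM and 4.61 for T2DM Ly6Clow MCs. For both genes all Ly6Chigh libraries were above all Ly6Clow libraries, with pooled log2FC of 1.40 (SE 0.14, adjusted p = 0.000106) and 1.28 (SE 0.14, adjusted p = 0.000156). Tlr1 lay the other way, at 5.41 and 5.30 for CT, 5.61 for T1DM and 5.83 for T2DM Ly6Chigh MCs, against 5.91 and 5.87 for CT, 5.92 for T1DM and 5.86 for T2DM Ly6Clow MCs. Every Ly6Chigh library of Tlr1 was below every Ly6Clow library, by only 0.03 in T2DM mice, and its pooled log2FC of -0.35 (SE 0.12) did not pass (adjusted p = 0.0579). Of the 31-base sequences of the GENCODE M21 transcripts, Tlr1 had 665 of 3322 and Tlr6 616 of 3709 in common with other genes, mostly with each other (607 and 603), so the values of this pair are uncertain, because reads from shared sequence can be split between them. Of the other 8 genes, Tlr4 shared 0.667% and 7 shared 0%.

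Among the endosomal receptors, Tlr7 and Tlr8 belong to the family that binds single-stranded RNA and its breakdown products. Tlr8 was 6.78 and 6.87 for CT, 7.14 for T1DM and 6.88 for T2DM Ly6Chigh MCs, and 5.60 and 5.83 for CT, 5.95 for T1DM and 5.78 for T2DM Ly6Clow MCs. The subsets stood apart, and the pooled log2FC was 1.12 (SE 0.10, adjusted p = 5.32e-05). Tlr7, whose gene is adjacent on chromosome X and on the same strand with 40599 bases between them, was 8.40 and 8.36 for CT, 8.41 for T1DM and 7.68 for T2DM Ly6Chigh MCs, and 7.57 and 7.16 for CT, 7.73 for T1DM and 7.31 for T2DM Ly6Clow MCs. The T2DM Ly6Chigh library lay below the T1DM Ly6Clow library, so the subsets overlapped. The pooled log2FC of Tlr7 was 0.77 (SE 0.14, adjusted p = 0.00252), short of the 2-fold limit.

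Tlr13, which binds bacterial ribosomal RNA, was 8.88 and 9.16 for CT, 8.75 for T1DM and 9.26 for T2DM Ly6Chigh MCs, and 7.98 and 7.78 for CT, 8.01 for T1DM and 8.25 for T2DM Ly6Clow MCs. Its subsets did not overlap, and the pooled log2FC was 1.01 (SE 0.10, adjusted p = 0.00014), barely past the fold limit. Without CT Ly6Chigh replicate 2 it was 0.92, and without CT Ly6Clow replicate 2 it was 0.94, so that 5 of the 10 genes were DEG. Of all 16486 genes, 1735 and 1606 were then DEG in either direction, against 2001 with all libraries. Tlr9, which binds unmethylated CpG DNA, was 7.48 and 7.37 for CT, 7.47 for T1DM and 7.22 for T2DM Ly6Chigh MCs, and 6.79 and 6.69 for CT, 6.50 for T1DM and 7.22 for T2DM Ly6Clow MCs. CT and T1DM mice had a gap between the subsets, and T2DM mice had almost none. The pooled log2FC of Tlr9 was 0.58 (SE 0.15, adjusted p = 0.015). B cells are known to express Tlr1, Tlr7 and Tlr9, and the B cell marker sum was higher in every Ly6Clow library, as given above. The sort took CD11b+ cells, and how many B cells passed it was not measured here. Their part in the Tlr1, Tlr7 and Tlr9 values was not tested.

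**Figure D2:**
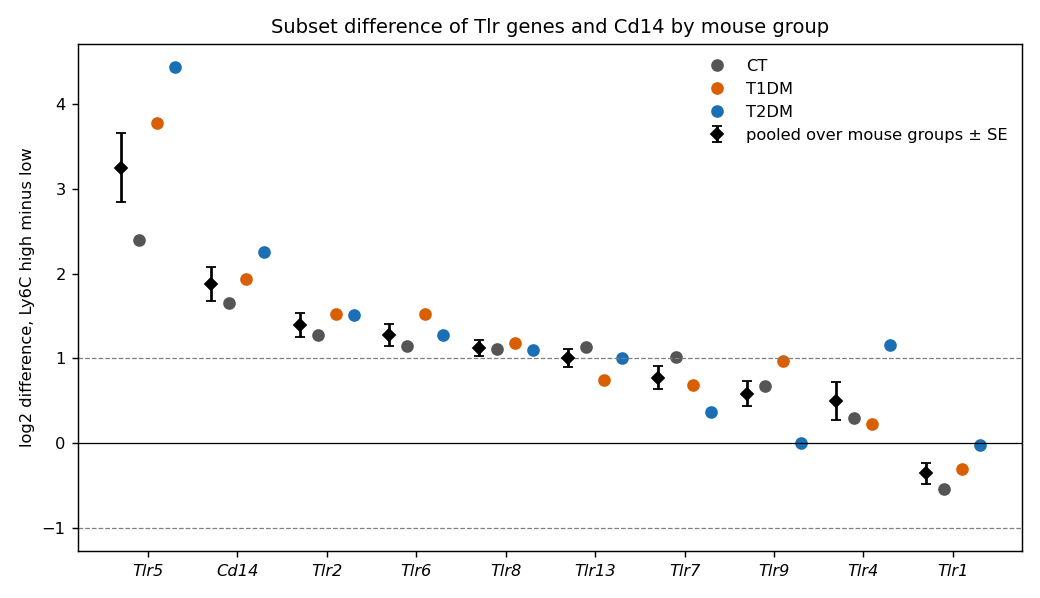
Difference of Ly6Chigh minus Ly6Clow MCs (vertical axis, log2) for the 10 genes, with circles for CT (2 libraries per subset), T1DM and T2DM mice, diamonds with bars for the pooled log2FC ± SE, and dashed lines at the 2-fold limit. The Tlr5 circles are at 2.39, 3.79 and 4.44, and the Tlr1 circles all lie below 0.

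Over the 4 libraries of each subset, 7 of the 10 genes had all Ly6Chigh above all Ly6Clow values (16.4% of all genes did), though for Tlr9 the gap was only 0.0004, and Tlr1 alone had them all below (16.3% of all genes). In CT mice on their own, with 2 libraries against 2, 0 of 10 were DEG, where 3.52% of all genes were. Their adjusted p-values lay between 0.0143 and 0.555, 9 of 10 had an unadjusted p-value under 0.05 (6207 of all 16486 genes did), and 7 of 10 were higher at an adjusted limit of 0.05, against 5.06% of all genes. The CT log2FC were 1.65 for Cd14, 1.27 for Tlr2, 1.15 for Tlr6, 1.14 for Tlr13, 1.11 for Tlr8, 1.01 for Tlr7, 0.68 for Tlr9 and -0.54 for Tlr1. In T1DM mice, 5 of 10 were more than 2-fold higher in Ly6Chigh MCs (11.0% of all genes), and in T2DM mice 7 of 10 (11.3% of all genes), where Tlr4 with 1.16 and Tlr13 with 1.01 joined Tlr5, Cd14, Tlr2, Tlr6 and Tlr8. These single differences have no replicate check. Under quantile normalization, which moved the median pooled log2FC of all genes by 0.12 (from -0.08 to 0.04), 4 of 10 were DEG. Of all 16486 genes, 1828 were DEG in either direction there, against 2001 in the main test. The pooled log2FC of Tlr8 became 0.95 and that of Tlr13 0.70, and each of the 10 genes kept its direction.

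The next comparisons asked how diabetes bears on the receptors. In T2DM Ly6Chigh MCs, 8 of the 10 genes had values above both CT libraries and 2 had values below both. The 8 were all 6 surface genes and the endosomal Tlr13 and Tlr8. The surface genes had log2 differences from the CT mean of 1.46 for Tlr5, 0.89 for Tlr4, 0.56 for Tlr6, 0.49 for Tlr2, 0.48 for Tlr1 and 0.28 for Cd14. Tlr13 and Tlr8 were at 0.24 and 0.06, and Tlr7 and Tlr9, below both CT libraries, at -0.70 and -0.21. Of all genes, 38.4% were above and 35.5% below both CT libraries in T2DM Ly6Chigh MCs. Only Tlr5 was past 2-fold (1 of 10, against 13.8% of all genes), with 2 of 10 when CT Ly6Chigh replicate 2 was left out. The share of all genes was not computed for that setting. The median of the 10 differences was 0.38, against 0.02 over all genes. The T2DM Ly6Chigh library also stood apart from the other 3 Ly6Chigh libraries in its marker sums, with classical markers at 14285 against 5396 to 6356, nonclassical markers at 1355 against 2026 to 2679, NK cell markers at 18.8 against 63.5 to 82.9 and platelet markers at 186 against 396 to 708. Its high neutrophil sum came mostly from Mmp8, at a log2 value of 9.70 against 6.99 to 7.28. S100a8 was at 6.90 against 1.14 to 2.49, S100a9 at 5.52 against 0.62 to 3.55, and Ngp at 3.07 against 1.53 to 2.89, so that 4 of the 6 markers were at their highest there. Retnlg was at -1.55 against 1.46 to 3.87, and Cxcr2 at 2.79 against 2.81 to 3.07. The sort took Ly6G- cells, and how many neutrophils passed it was not measured here. The part of these differences in the receptor values was not tested.

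In T1DM Ly6Chigh MCs, Tlr5 was 1.03 above the CT mean, and 0.60 above the higher CT library. It was the only gene of the 10 past 2-fold (1 of 10, against 10.1% of all genes), and none was without CT Ly6Chigh replicate 2. Cd14 lay 0.37, Tlr8 0.31 and Tlr1 0.26 above the CT mean, and Tlr13 lay at -0.27. Tlr4, Tlr6 and Tlr9 were inside the range of the CT libraries. The median over the 10 genes was 0.04, against 0.02 over all genes.

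In Ly6Clow MCs, 0 of 10 genes were past 2-fold in T1DM (8.81% of all genes were) or in T2DM mice (10.8% of all genes). Tlr5 was below both CT libraries, by -0.36 from the CT mean in T1DM and -0.59 in T2DM mice, opposite to its direction in Ly6Chigh MCs. Its log2 values in Ly6Clow libraries were only 0.37 to 1.00, so these differences are small in absolute expression. Tlr6 was at -0.36 in T1DM and 0.44 in T2DM mice, outside the CT libraries on either side. Tlr9 was at -0.24 in T1DM and 0.47 in T2DM mice, and Tlr7 at 0.36 and -0.05. The T1DM and T2DM differences share the CT libraries.

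**Figure D3:**
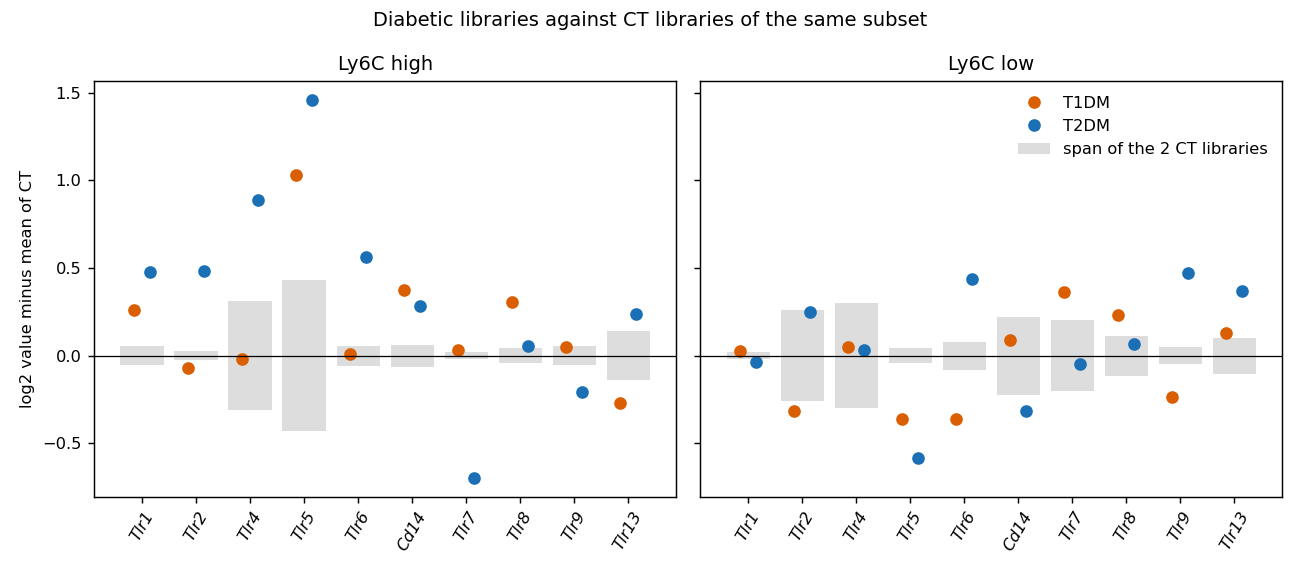
Difference of each diabetic library (points) from the mean of the CT libraries of its subset (vertical axis, log2) for the 10 genes, with the span of the 2 CT libraries as grey bars. In T2DM Ly6Chigh MCs the 6 surface genes, Tlr8 and Tlr13 lie above their bars and Tlr7 and Tlr9 below.

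Over both subsets, 0 of 10 genes were DEG in T1DM against CT mice (0% of all genes), and 0 of 10 had an unadjusted p-value under 0.05 in limma, as did 551 of all genes. In T2DM against CT mice 0 of 10 were DEG (0.297% of all genes). Tlr6 with 0.50 (SE 0.17, unadjusted p = 0.0152, adjusted p = 0.330) and Tlr13 with 0.30 (unadjusted p = 0.0438, adjusted p = 0.535) were the 2 of 10 with an unadjusted p-value under 0.05, which 1474 of all 16486 genes had. In T2DM against T1DM mice, which were run on the same sequencer, 0 of 10 were DEG (0.588% of all genes) and 4 of 10 had an unadjusted p-value under 0.05, as did 2364 of all 16486 genes. Tlr6 was at 0.68 (SE 0.19, adjusted p = 0.147), Tlr2 at 0.56 (SE 0.20, adjusted p = 0.238), Tlr13 at 0.37 (SE 0.15, adjusted p = 0.299) and Tlr7 at -0.57 (SE 0.19, adjusted p = 0.216). Each of these 4 differences had its sign in both subsets, and none passed the correction over all genes. The fit joins both subsets, so a low p-value favours equal signs, and the signs are no further support. Marker sums moved between the same libraries, with platelet markers (5 of 5) at 186 and 220 in T2DM against 708 and 769 in T1DM Ly6Chigh and Ly6Clow MCs, and NK cell markers at 18.8 and 121 against 82.9 and 643. Neutrophil markers were at 1011 and 127 against 174 and 27.0 and classical monocyte markers at 14285 and 964 against 5396 and 658, so these sums were higher in T2DM mice in both subsets, as were Tlr6, Tlr2 and Tlr13. B cell markers in Ly6Clow MCs were at 5009 against 3990. Their part in these differences was not tested.

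A test of whether the subset difference itself differed between diabetic and CT mice found 0 DEG among the 10 (0% of all genes). It took the T1DM and T2DM libraries of a subset as replicates of the same diabetic group, so its SE includes differences between the models. Tlr5 had the only unadjusted p-value under 0.05 of the 10 (1084 of all genes had one). Its subset log2FC was larger by 1.72 in diabetic mice (SE 0.56, unadjusted p = 0.0169, adjusted p = 0.685). The difference was 2.05 without the T1DM libraries and 1.39 without the T2DM libraries. Tlr9 was at -0.20 (SE 0.32, adjusted p = 0.953) over both models, at -0.68 without the T1DM libraries and at 0.29 without the T2DM libraries. Leaving out a model leaves 1 diabetic library per subset, so only the CT libraries give a spread there. The joined test counts a gap particular to T2DM mice as spread. It therefore cannot decide about the small subset gap of Tlr9 in T2DM mice. The sequencer cannot be told apart from diabetes here either.

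The other 42 genes of the pathway were all measured, and comprise 4 other TLRs and relatives, 10 coreceptors and chaperones, 6 adaptors, 13 kinases and ubiquitin ligases and 9 negative regulators. Over all 8 libraries 3 (7.14%) were DEG higher and 2 (4.76%) DEG lower in Ly6Chigh MCs, near the 5.37% and 6.76% of all genes, so these counts are no result about the pathway. The 42 genes had a median log2FC of 0.16 against -0.08 over all genes. Myd88, the adaptor of nearly all TLRs, was 6.40 and 6.56 for CT, 6.44 for T1DM and 6.72 for T2DM Ly6Chigh MCs, and 5.14 and 5.04 for CT, 4.79 for T1DM and 5.32 for T2DM Ly6Clow MCs. Its pooled log2FC was 1.46 (SE 0.11), and at 1.39 it was a DEG in CT mice alone (adjusted p = 0.00874). Lbp, which carries lipopolysaccharide to Cd14, had a pooled log2FC of 1.53 (SE 0.34, adjusted p = 0.0081), and Ikbke, a kinase of the interferon branch, 1.04 (SE 0.17, adjusted p = 0.00182). Lbp did not pass when CT Ly6Chigh replicate 1 or 2, CT Ly6Clow replicate 1 or either diabetic model was left out (adjusted p = 0.0122 to 0.0416), and Ikbke did not pass without the T1DM (log2FC 0.99) or the T2DM libraries (0.89).

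Cd36, a scavenger receptor that assists the dimer of Tlr2 and Tlr6, went opposite to both, at 5.27 and 5.63 for CT, 4.91 for T1DM and 4.88 for T2DM Ly6Chigh MCs and 7.87 and 7.62 for CT, 7.88 for T1DM and 8.54 for T2DM Ly6Clow MCs. Its pooled log2FC was -2.80 (SE 0.22), and in CT mice -2.29 (adjusted p = 0.00876). The calls of Myd88 and Cd36 in CT mice alone were lost when any 1 CT library was left out (adjusted p = 0.0833 to 0.109). Nlrc3, a negative regulator of TLR signaling, had a pooled log2FC of -1.41 (SE 0.17, adjusted p = 0.000352). By class, the adaptors had 1 DEG higher and 0 lower, the coreceptors and chaperones 1 and 1, the kinases and ubiquitin ligases 1 and 0, the negative regulators 0 and 1, and the other TLRs and relatives 0 and 0. Unc93b1, which carries endosomal TLRs from the endoplasmic reticulum, was 8.57 to 8.70 in the 4 Ly6Chigh and 7.53 to 7.92 in the 4 Ly6Clow libraries, so the subsets did not overlap, although it was not a DEG.

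**Figure D4:**
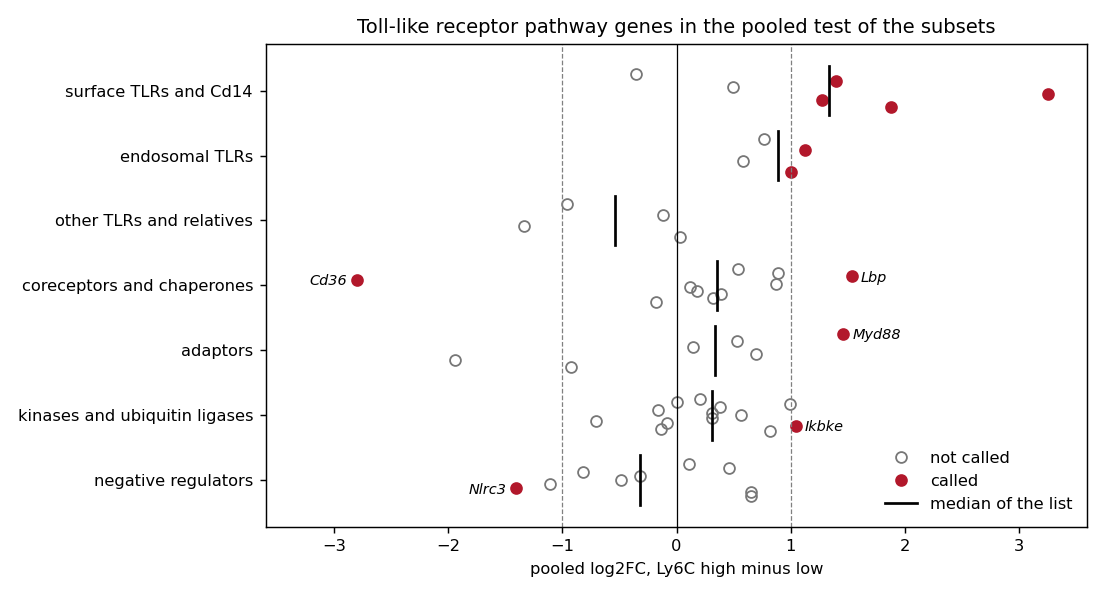
Pooled log2FC of Ly6Chigh minus Ly6Clow MCs (horizontal axis) for the 10 receptors and the 42 other pathway genes by class, with filled points for DEG, black bars at the list medians and dashed lines at the 2-fold limit. Of the 42, Myd88, Lbp and Ikbke lie above 1 and Cd36 and Nlrc3 below -1 as DEG.

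Of these 42 genes, 0 were DEG in the comparisons between mouse groups or in the test of the subset difference. Past 2-fold and outside both CT libraries in Ly6Chigh MCs were Sarm1 (-1.08), Socs1 (-1.31) and Il1rl1 (-1.10) in T1DM and Tlr11 (-1.50), Tlr12 (-1.39) and Lbp (1.78) in T2DM mice. In Ly6Clow MCs they were Lbp (-1.22) and Socs1 (1.35) in T1DM and Tlr12 (-1.36) in T2DM mice. Of all genes, 10.1% (T1DM) and 13.8% (T2DM) were past 2-fold in Ly6Chigh MCs, and 8.81% and 10.8% in Ly6Clow MCs. These names are therefore no result about the pathway. The CT Ly6Chigh libraries differed by 1.34 for Sarm1 and 1.42 for Il1rl1, more than the differences given. Sarm1, Socs1 and Tlr12 had low mean log2 values over the 8 libraries, at -0.51, 0.86 and -0.45. Socs1 and Sarm1 are known as inhibitors of TLR signaling, and Il1rl1 is the receptor of an interleukin of the IL-1 family.

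For each receptor, the genes with the most similar pattern were ranked by Pearson correlation over the 8 libraries, among 2266 genes whose log2 values had a mean of 3 or more and an SD of 0.5 or more. The libraries form the 2 subsets, so a gene with a large subset difference ranks high for most of them, and the values are descriptions. Rnh1 (0.998) came first for Tlr2, Mcemp1 (0.997) for Tlr6, Prdx2 (0.997) for Tlr8, Fam241a (0.996) for Cd14, Bmf (0.993) for Tlr13 and Camk1 (0.989) for Tlr9. For Tlr7 the leading genes were Ifih1 (0.979) and Siglec1 (0.968), for Tlr4 Gng2 (0.955) and for Tlr1 Dennd3 (0.952). Among the receptors themselves, Tlr2 and Tlr6 were alike at 0.984 and Cd14 and Tlr8 at 0.984, whereas Tlr1 and Tlr7 were at -0.847. Tlr5 was below the limit on mean level.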

How the data were processed

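RNA-Seq of sorted MC subsets was analysed for 8 libraries, 4 CT, 2 T1DM and 2 T2DM. Further libraries that the study describes were not analysed here. The authors quantified reads with Kallisto 0.45, summarized them to genes with tximport (version 1.12.3, under R version 3.6.1; mm10 is named in the submitters' processing notes), and deposited log2 expression values for 16486 genes (16485 distinct symbols). Per the labels, tximport gave gene counts and TPM values from 40000000 reads per sample. Which of them the log2 values were made from, the scaling between libraries and the filter are not given in the sources used here, and the reads behind single values are unknown.

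Log2FC were computed from the deposited log2 values with limma 3.58.1 (lmFit, eBayes with trend) in R 4.3.3, with Benjamini-Hochberg adjustment over 16486 genes. DEG passed both limits of the study, which are 0.01 for the adjusted p-value and 1 for the absolute log2FC. CT Ly6Chigh and Ly6Clow MCs were compared alone, and all 8 libraries were fitted with subset and mouse group. For the test of the subset difference, T1DM and T2DM mice were joined as diabetic mice. Comparisons with 1 diabetic library were given without a test. Tests were checked on simulated data. Alternatives were a low-value filter (mean log2 of at least 1, 12527 genes), adding 1 before log2, quantile normalization, no variance trend, an adjusted limit of 0.05, a replicate block, and leaving out each CT library or diabetic model. All 10 receptors were described. Pathway genes were named if DEG between the subsets, or past 2-fold and outside both CT libraries. Ly96, Unc93b1 and single neutrophil markers were named outside this rule, after their values were seen. The members and lists were chosen with earlier results of these data known. Other steps used Python 3.11.15 with matplotlib 3.10.9, scipy 1.17.1, pandas 2.3.3 and numpy 2.4.6.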

Additional observations from a re-analysis of the deposited data

How the results depend on the processing

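Precision rests on 2 CT libraries per subset and 1 library per subset in each diabetic model, and the reads behind single values are unknown. In CT mice the number of the 10 receptors called between the subsets was 0, and became 5 with the low-value filter and 7 at an adjusted limit of 0.05. It stayed at 0 with a replicate block. Same-numbered CT samples showed no shared deviation from their subset means (correlation of deviations 0.00892), which cannot show whether they were paired. Over all genes the CT count of 581 became 1089 with the low-value filter, 1936 at the limit of 0.05, and 0 without the variance trend, with the replicate block or when any 1 CT library was left out. For the pooled subset test, which called 6 receptors and 2001 genes, the replicate block called 6 and 1823. Leaving out the T1DM or the T2DM libraries also left 6 receptors called, with 1507 and 1687 of all genes.

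Over all genes, T2DM against CT mice gave 49 calls, 9 without the variance trend, 105 at 0.05 and 17 to 21 when 1 CT library was left out. T2DM against T1DM mice gave 97, 26, 253 and 57 to 84. T1DM against CT mice gave 0 and 2 at 0.05, and the test of the subset difference 0 and 3 at 0.05. The receptors past 2-fold in T1DM Ly6Chigh MCs were 1, or 0 with 1 added before log2, 0 with quantile normalization and 0 to 1 with 1 CT library left out. In T2DM Ly6Chigh MCs they were 1 to 2 with 1 CT library left out.

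Directions changed only for values near 0 or far from passing. Tlr4 in T1DM against CT mice was 0.01, and -0.00534 with quantile normalization. The difference in subset log2FC was -0.0105 for Tlr8 without the T1DM libraries, and -0.0690 for Tlr4 and 0.29 for Tlr9 without the T2DM libraries. With 1 CT library left out, Tlr4 ran from -0.00979 to 0.611 between the CT subsets and from -0.151 to 0.173 in T1DM against CT mice. Likewise Tlr5 ran from -0.00793 to 0.525 and Tlr13 from -0.138 to 0.0114 in T1DM, and Cd14 from -0.0866 to 0.115 in T2DM against CT mice. The difference in subset log2FC ran from -0.0195 to 0.502 for Tlr2 and from -0.0815 to 0.146 for Tlr8. The cause was not tested for any of these changes.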

Other observations

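Tlr3, the endosomal receptor of double-stranded RNA, was outside the 10 receptors described. Its log2 values were 2.03 and 3.61 for CT, 2.53 for T1DM and 2.37 for T2DM Ly6Chigh MCs, and 3.53 and 3.03 for CT, 3.74 for T1DM and 4.07 for T2DM Ly6Clow MCs. The subsets overlapped, because the CT Ly6Chigh libraries differed by 1.58 from each other, so that the CT log2FC of -0.46 had an SE of 0.64. Tlr12, which binds a protein of parasites, was listed between -2.40 and 1.19 in the 8 libraries. Its difference of T2DM from T1DM mice was -2.27 (SE 0.56, unadjusted p = 0.00324, adjusted p = 0.0992 in limma) and did not pass.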
